A study of Mus musculus with 6 samples.

Results

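Immediate early genes are genes whose transcription starts within minutes of a stimulus, and 10 of them, Fos, Fosb, Junb, Egr1, Arc, Npas4, Nr4a1, Ier2, Dusp1 and Btg2, were followed here in RNA sequencing of dorsal root ganglia (DRGs). They were taken as the rows of the deposited table whose Ensembl mouse gene identifier belongs to one of these symbols, which gave 10 of 47937 rows. The choice of the genes used no measured value of the table, but it was made with earlier results of these data known. All 10 had at least 10 reads over the 6 libraries and so were among the 20006 genes tested.

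The libraries came from cervical, thoracic and lumbar DRGs of C57BL/6 mice about 2 months old, 3 control mice and 3 Tlx3cko mice, and the labels give no treatment for either group. The Tlx3cko mice carried the genotype Tlx3f/f;SNS-cre, in which the transcription factor gene Tlx3 is deleted by a Cre driven from the promoter of the sodium channel Nav1.8. This Cre is active in most nociceptive neurons from late embryonic life, so that cells in which it is not active keep an intact Tlx3 allele. In the labels the controls are wild type, whereas the study's text calls the controls littermates, and whether these 3 mice carried floxed alleles is not given in the sources used here.

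As background, the promoters of immediate early genes are held ready and are switched on by factors already present in the cell, mainly CREB, which binds the cAMP response element (CRE), and serum response factor with its Elk partners, which binds the CArG box. Calcium entry during firing, growth factors and injury all reach these factors through kinases, and the transcripts are short-lived. In the spinal cord the Fos protein is widely used as a mark of recent noxious input. Fos, Fosb and Junb code for subunits of the AP-1 transcription factor, Egr1, Nr4a1 and Npas4 for other transcription factors, Arc for a synaptic protein, Ier2 for a small nuclear protein, and Dusp1 and Btg2 for negative regulators of kinase signalling and of growth.

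The sequence just before the transcription start shows what these genes share outside the measured values. RefSeq windows of 250 bases before the start (GRCm38.p6) were found for 7 of the 10 genes, namely Fos, Fosb, Junb, Npas4, Nr4a1, Dusp1 and Btg2. The start is the one that RefSeq gives. Annotated exons of the gene itself cover all 250 bases of the Npas4 window, 47 of the Dusp1 window and 6 of the Fosb window. The CRE half-site TGACG, searched on both strands and so also as CGTCA, was present in 7 of these 7 windows, against 17.8% of the 32851 RefSeq windows of the same length. Nr4a1 held 4 half-sites, Dusp1 held 3, Fos, Npas4 and Btg2 held 2 each, and Fosb and Junb held 1 each. The complete CRE TGACGTCA, which contains the half-site on both strands, was present in 2 of 7 windows (Dusp1 and Btg2), against 1.55% of all windows. The letters TATAAA on the strand of the gene were found in 1 of 7 windows (Fos), against 7.59% of all windows. The AP-1 site TGANTCA and the CArG box, searched in a strict form, were found in 0 of 7 windows, against 6.75% and 1.47% of all windows. With shares this low, 0 of 7 does not set these genes apart. Sites more than 250 bases before the start could not be found, nor any in Egr1, Arc and Ier2, which had no window. The search therefore cannot show that the genes lack these sites. These matches describe the letters of the windows only.

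The windows of 4 genes are shown as examples of different results. Fos differed most between libraries of the same genotype among these 4. Nr4a1 and Dusp1 were higher in Tlx3cko DRGs, and Btg2 was the gene whose difference had the opposite sign. Capitals mark the CRE half-sites and complete CREs, and each sequence runs 5′ to 3′ on the strand of the gene. The Fos window is chr12:85473640-85473889 on the plus strand, with the TATAAA letters near its end. The Nr4a1 window is chr15:101266596-101266845 on the plus strand and lies inside the annotated span of the gene, before the start that RefSeq gives, in no annotated exon. The Dusp1 window is given as chr17:26508520-26508722 on the minus strand, shortened to 203 bases so that it stops before an annotated exon. The Btg2 window is chr1:134079156-134079405 on the minus strand.
Fos: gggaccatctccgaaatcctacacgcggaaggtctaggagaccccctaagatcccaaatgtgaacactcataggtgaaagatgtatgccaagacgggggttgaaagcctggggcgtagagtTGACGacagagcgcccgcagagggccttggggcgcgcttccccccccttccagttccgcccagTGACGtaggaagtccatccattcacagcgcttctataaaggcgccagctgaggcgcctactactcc
Nr4a1: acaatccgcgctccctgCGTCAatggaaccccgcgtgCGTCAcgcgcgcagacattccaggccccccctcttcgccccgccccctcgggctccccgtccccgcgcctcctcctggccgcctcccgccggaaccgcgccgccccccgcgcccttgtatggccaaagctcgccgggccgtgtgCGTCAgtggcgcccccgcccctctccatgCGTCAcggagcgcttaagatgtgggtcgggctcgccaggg
Dusp1: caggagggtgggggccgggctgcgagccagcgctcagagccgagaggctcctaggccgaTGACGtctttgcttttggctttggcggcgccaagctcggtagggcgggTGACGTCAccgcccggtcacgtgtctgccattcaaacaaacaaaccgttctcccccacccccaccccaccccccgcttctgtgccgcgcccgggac
Btg2: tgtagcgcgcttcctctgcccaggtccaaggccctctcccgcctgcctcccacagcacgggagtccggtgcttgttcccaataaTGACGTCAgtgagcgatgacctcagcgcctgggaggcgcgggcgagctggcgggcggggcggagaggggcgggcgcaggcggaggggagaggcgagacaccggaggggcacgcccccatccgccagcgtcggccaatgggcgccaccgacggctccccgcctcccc

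The 6 libraries held between 11458299 and 18775628 counts, the lowest in Tlx3cko replicate 2. Tlx3 was lower in all Tlx3cko libraries than in any control library, with a log2 fold change of -0.46 (SE 0.09, adjusted p = 0.0122, where every adjusted p is the Benjamini-Hochberg value of the quasi-likelihood fit in edgeR). This call was lost on removing control replicate 2 (adjusted p = 0.0606), Tlx3cko replicate 2 (0.0910) or Tlx3cko replicate 3 (0.0706). It was also lost against control replicate 3 alone, where the log2 fold change was -0.38. Across the table, 851 of 20006 genes (4.25%) passed an adjusted p under 0.05, of which 339 (1.69%) were higher and 512 (2.56%) lower in Tlx3cko DRGs. Control replicates 1 and 2 showed 591 and 493 counts of Xist, which had at most 2 counts elsewhere, and the Y-linked gene Ddx3y had 0 counts in these same replicates and 273 to 525 in the others. Sex was therefore not balanced between the genotypes, and the comparison with control replicate 3 alone is given for every gene called below. That comparison leaves 1 control, so a call can be lost in it without a smaller difference. In some genes, Nr4a1 and Egr2 among them, the difference was smaller too.

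Of the 10 immediate early genes, 4 were higher in Tlx3cko DRGs past the threshold and 0 were lower: Egr1, Arc, Nr4a1 and Dusp1. Over all genes tested, 1.69% were called higher and 2.56% lower. Egr1 had the largest ratio of mean values among these 4, 3.61, followed by Arc with 1.95, Nr4a1 with 1.61 and Dusp1 with 1.38. The sign of the difference was positive in 9 of the 10 genes, the exception being Btg2, and the median log2 fold change of the 10 was 0.63, beside -0.00 over all genes tested. The unadjusted p was under 0.05 with a positive difference in 6 of the 10 genes and with a negative difference in 0, beside 1326 and 1584 of all 20006 genes. DESeq2 and limma-voom each called 3 higher and 0 lower. With 1 library left out, 1 of the 10 genes was called without control replicate 2 or Tlx3cko replicate 2, 2 without control replicate 1 or 3 or Tlx3cko replicate 3, and 3 without Tlx3cko replicate 1, and against control replicate 3 alone 0 were called. Tlx3cko replicate 2 stood apart from the other libraries in several of the 10 genes, and their values are given with and without it. In 5 of the 10 genes (the 4 above and Fos) every Tlx3cko library lay above every control library, which was so for 8.87% of all genes tested, and in 0 genes did every Tlx3cko library lie below, which was so for 10.8%.

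Values below are normalized counts, that is, counts scaled by TMM to the mean effective library size of 14974185, and ± marks the SD over the 3 libraries of a genotype. The smallest p that an exact two-sided permutation test on 1 gene can reach with 3 mice a genotype is 0.1, and significance was therefore read from the fit to the whole table. DRG libraries hold RNA of all cells of the ganglion, and more expressing cells cannot be told apart from more RNA per cell.

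**Figure D1:**
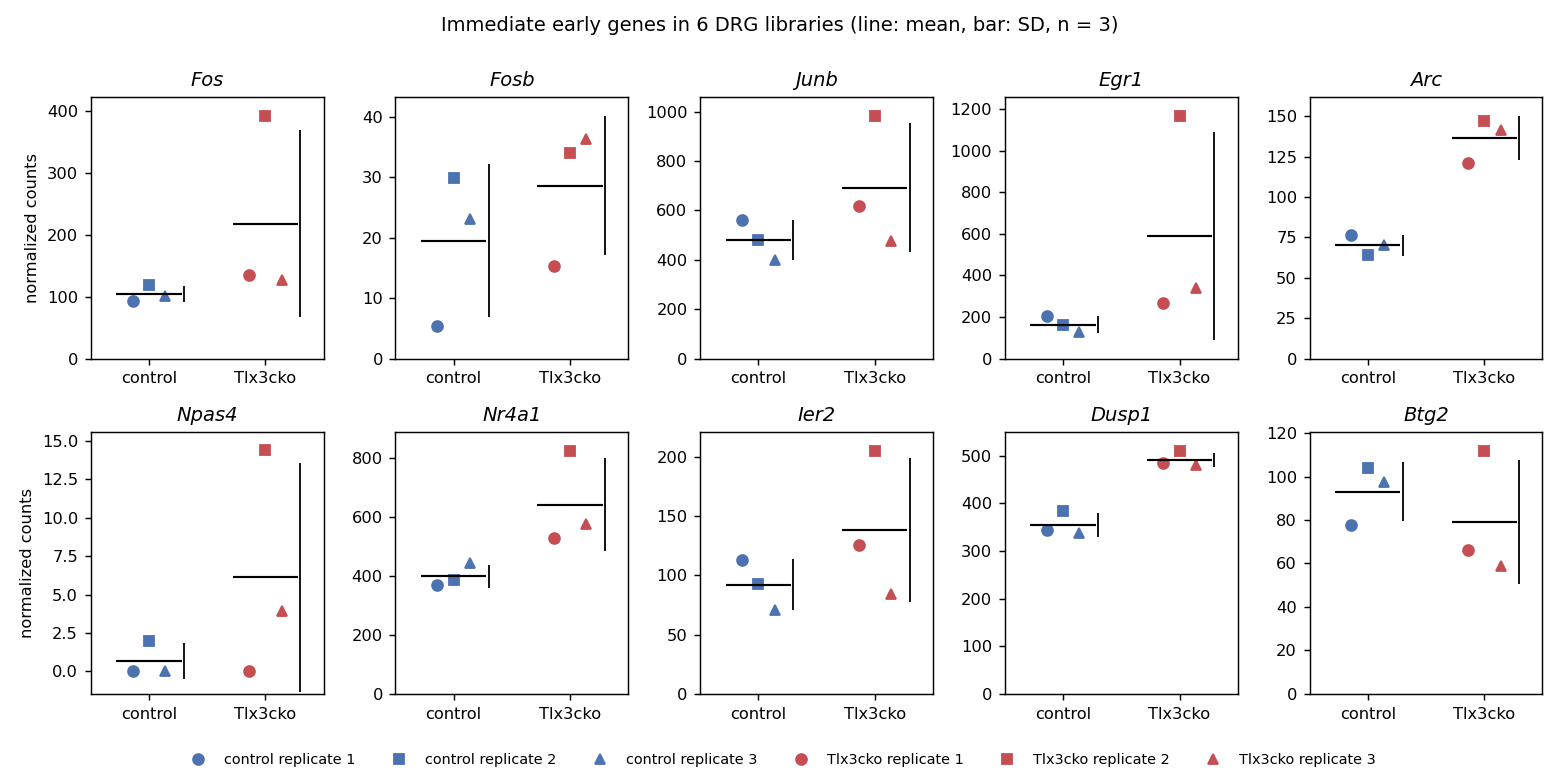
Normalized counts of the 10 immediate early genes (y axis, linear from 0 except for a bar that reaches below it) in control (blue) and Tlx3cko (red) DRG libraries, with the marker giving the replicate number, a line at the mean and a bar of 1 SD (n = 3). Egr1, Arc, Nr4a1, Dusp1 and Fos show no overlap between the genotypes, and the Tlx3cko replicate 2 square stands far above the other points in Fos and Egr1.

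Fos (ENSMUSG00000021250, chromosome 12, 85473890 to 85477273, plus strand), whose product pairs with Jun proteins to form AP-1, had 92.8, 119 and 101 normalized counts in control replicates 1, 2 and 3 and 136, 392 and 127 in Tlx3cko replicates 1, 2 and 3. The lowest Tlx3cko value lay just above the highest control value, and Tlx3cko replicate 2 was far above all others. The means were 104 ± 13.2 and 218 ± 151, and the log2 fold change of 1.05 (SE 0.36, 95% interval 0.28 to 1.82) did not pass the threshold (adjusted p = 0.149). Without Tlx3cko replicate 2 the log2 fold change was 0.34.

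Fosb (ENSMUSG00000003545, chromosome 7, 19302696 to 19310051, minus strand), a close relative of Fos in the same complex, was read at low counts. It had 5.40, 29.9 and 23.1 normalized counts in controls and 15.4, 34.1 and 36.4 in Tlx3cko libraries. The lowest value was in control replicate 1 and the ranges overlapped widely, with a log2 fold change of 0.53 whose 95% interval ran from -0.62 to 1.68 (adjusted p = 0.746). With 1 library left out it ranged from 0.10 (without control replicate 1) to 0.94 (without control replicate 2).

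Junb (ENSMUSG00000052837, chromosome 8, 84974484 to 84978718, minus strand), a Jun family partner in AP-1, had 563, 481 and 401 normalized counts in controls and 619.8, 983 and 475 in Tlx3cko libraries. Tlx3cko replicate 3 lay among the control values and replicate 2 well above them. The log2 fold change of 0.52 (SE 0.21, 95% interval 0.06 to 0.98) did not pass the threshold (adjusted p = 0.265), and it was 0.20 without Tlx3cko replicate 2. Of the exon bases of Junb, 7.52% are overlapped on the other strand by Prdx2, a peroxidase gene, and whether counting used strand is not given in the sources used here, so reads from that stretch cannot be told apart. Prdx2 itself had 3552 ± 419 normalized counts in controls and 3402 ± 290 in Tlx3cko libraries (n = 3 each), with a log2 fold change of -0.06.

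Egr1 (ENSMUSG00000038418, chromosome 18, 34859823 to 34864984, plus strand) codes for a zinc finger transcription factor that is used, like Fos, as a mark of neuronal activity. It had 204, 159.6 and 127 normalized counts in controls and 265, 1167 and 341 in Tlx3cko libraries. The genotypes did not overlap, and Tlx3cko replicate 2 stood several-fold above the other Tlx3cko libraries. The means were 163 ± 38.7 and 591 ± 500.0, and the log2 fold change was 1.85 (SE 0.44, 95% interval 0.90 to 2.79, adjusted p = 0.0302). Without Tlx3cko replicate 2 the log2 fold change was 0.91 and still past the threshold (adjusted p = 0.0451). The call was lost on removing control replicate 2 (adjusted p = 0.122) or 3 (0.133), and with DESeq2 (0.0852) and limma-voom (0.0991). It was also lost against control replicate 3 alone, where the log2 fold change was 2.20.

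Nr4a1 (ENSMUSG00000023034, chromosome 15, 101254269 to 101274795, plus strand), an orphan nuclear receptor also called Nur77, had 369, 385 and 444 normalized counts in controls and 527, 823 and 578 in Tlx3cko libraries. All 3 Tlx3cko libraries were above the highest control, by more than the control libraries differed among themselves. The means were 399 ± 39.2 and 643 ± 158, with a log2 fold change of 0.68 (SE 0.16, 95% interval 0.34 to 1.02, adjusted p = 0.0256). The call was lost without control replicate 1 (adjusted p = 0.0771), control replicate 2 (0.105) or Tlx3cko replicate 2 (0.110, log2 fold change 0.48). It was also lost against control replicate 3 alone, where the log2 fold change was smaller, 0.53.

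Npas4 (ENSMUSG00000045903, chromosome 19, 4984355 to 4990316, minus strand), a transcription factor gene known for its response to calcium entry in neurons, was close to the limit of detection. Its raw counts were 0, 2 and 0 among controls and 0, 11 and 4 among Tlx3cko libraries. Most of its reads came from Tlx3cko replicate 2, and Tlx3cko replicate 1 had none. The ratio of summed counts, 15 against 2 with library size taken into account, was 8.47 with an exact 95% counting interval of 1.97 to 76.4, which does not cover the spread between mice. The fit across all genes gave an adjusted p of 0.395, and its fold change depends on the prior count at so few reads.

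Arc (ENSMUSG00000022602, chromosome 15, 74669083 to 74672570, minus strand), the activity-regulated cytoskeleton-associated gene that acts at synapses, had 76.6, 63.8 and 70.2 normalized counts in controls and 121, 147 and 142 in Tlx3cko libraries. Both groups were tight and far apart, and replicate 2 did not stand out among the Tlx3cko libraries. The means were 70.2 ± 6.40 and 137 ± 13.6, and the log2 fold change was 0.96 (SE 0.19, 95% interval 0.54 to 1.38, adjusted p = 0.0119, the lowest among the 10 genes). Leaving out any 1 library kept the log2 fold change between 0.90 and 1.04. The call was nevertheless lost without control replicate 2 (adjusted p = 0.0528), Tlx3cko replicate 2 (0.0564) or Tlx3cko replicate 3 (0.0569), and against control replicate 3 alone (0.130, log2 fold change 0.96).

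Dusp1 (ENSMUSG00000024190, chromosome 17, 26505590 to 26562128, minus strand), a phosphatase that switches off MAP kinases, had 343, 384 and 337 normalized counts in controls and 484, 509 and 481 in Tlx3cko libraries. Its Tlx3cko libraries lay within a narrow band above every control. The means were 355 ± 25.4 and 491 ± 15.3, with a log2 fold change of 0.47 (SE 0.11, 95% interval 0.23 to 0.71, adjusted p = 0.0289). Of the 6 fits with 1 library removed, 5 lost this call, without control replicate 1 (0.0713) or 3 (0.1001) and without Tlx3cko replicate 1 (0.0527), 2 (0.120) or 3 (0.0966), while the log2 fold change stayed between 0.43 and 0.53. Against control replicate 3 alone the adjusted p was 0.116 and the log2 fold change 0.54. On the other strand, Ergic1 overlaps 0.332% of the exon bases of Dusp1.

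Ier2 (ENSMUSG00000053560, chromosome 8, 84661331 to 84662852, minus strand, a gene of 1 exon) had 113, 92.8 and 71.0 normalized counts in controls and 126, 205 and 84.6 in Tlx3cko libraries. Its value in Tlx3cko replicate 3 was below 2 of the 3 controls, and replicate 2 was the highest of all. The log2 fold change was 0.58 (SE 0.29, 95% interval -0.05 to 1.21, adjusted p = 0.402), and it was 0.21 without Tlx3cko replicate 2.

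Btg2 (ENSMUSG00000020423, chromosome 1, 134075170 to 134079120, minus strand), an antiproliferative gene of the BTG and TOB family, had 77.7, 104 and 97.3 normalized counts in controls and 66.4, 112 and 59.0 in Tlx3cko libraries. Tlx3cko replicates 1 and 3 were the lowest of the 6 libraries and replicate 2 the highest. The log2 fold change was -0.25 (95% interval -0.81 to 0.31, adjusted p = 0.758), and it was -0.56 without Tlx3cko replicate 2 (adjusted p = 0.406).

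**Figure D2:**
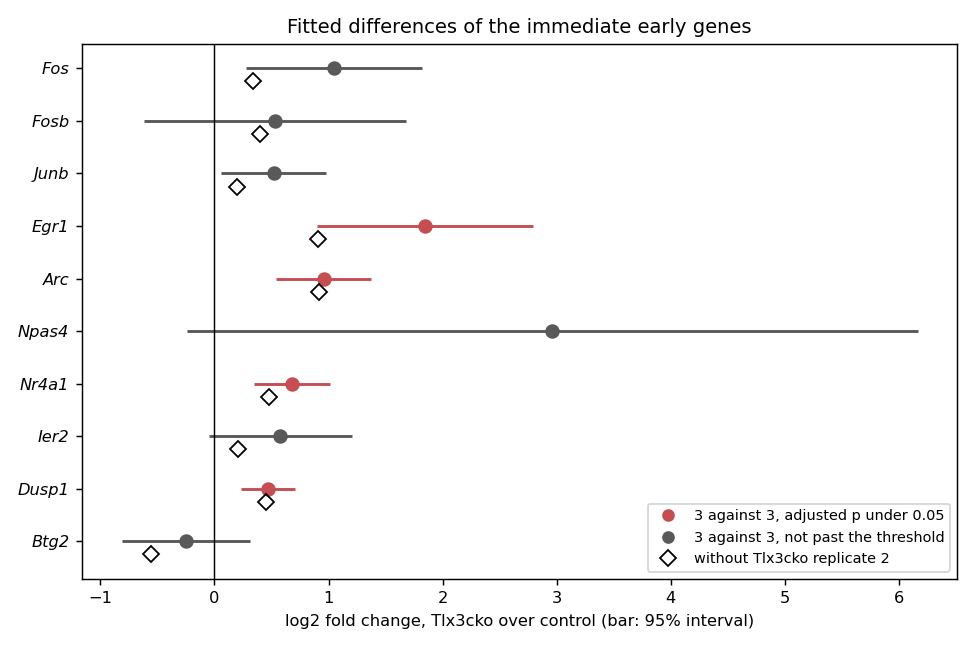
Log2 fold change of each immediate early gene, Tlx3cko over control, from the fit of 3 against 3 libraries (filled circles with 95% intervals, red where the adjusted p was under 0.05) and from the fit without Tlx3cko replicate 2 (open diamonds). Fos moved from 1.05 to 0.34 and Egr1 from 1.85 to 0.91, whereas Arc and Dusp1 hardly moved, and Npas4, with 2 reads in all controls and 15 in all Tlx3cko libraries, could not be tested without that library.

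Over 14 alternative settings the adjusted p ranged from 2.0e-34 to 0.206 for Egr1, from 0.00165 to 0.130 for Arc, from 3.6e-06 to 0.379 for Nr4a1 and from 0.0081 to 0.120 for Dusp1, and none of the 10 genes changed the sign of its difference. The lowest of these values came from the fit without the low-count filter for Egr1, Arc and Nr4a1, and for Egr1 its standard error was 0.14 in place of 0.44.

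How far a difference rested on Tlx3cko replicate 2 varied from gene to gene. Tlx3cko replicate 2 was the highest of the 6 libraries in 9 of the 10 genes (90%), and Tlx3cko replicate 3 was the highest in Fosb. Over all genes tested, Tlx3cko replicate 2 was the highest library in 17.5%. Summed over the 10 genes, the normalized counts were 1846, 1820 and 1672 in control and 2361, 4385 and 2328 in Tlx3cko libraries.

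Against the mean of Tlx3cko replicates 1 and 3, replicate 2 was 3.85-fold higher in Egr1, 2.99-fold in Fos, 1.94-fold in Ier2, 1.79-fold in Junb, 1.78-fold in Btg2, 1.49-fold in Nr4a1 and 1.32-fold in Fosb. In Npas4, with few reads, it was 7.33-fold higher. It was only 1.12-fold higher in Arc and 1.05-fold higher in Dusp1. Setting replicate 2 aside, the mean of Tlx3cko replicates 1 and 3 was 1.87 times the control mean in Arc, 1.85 times in Egr1, 1.38 times in Nr4a1 and 1.36 times in Dusp1, and both replicates lay above all controls in these genes and in Fos (1.26 times). In Junb and Ier2 this ratio was 1.14 each, in Fosb it was 1.33, and in Btg2 it was 0.675. Tlx3cko replicate 2 was also the library with the fewest counts, and the part of depth in these values was not tested.

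**Figure D3:**
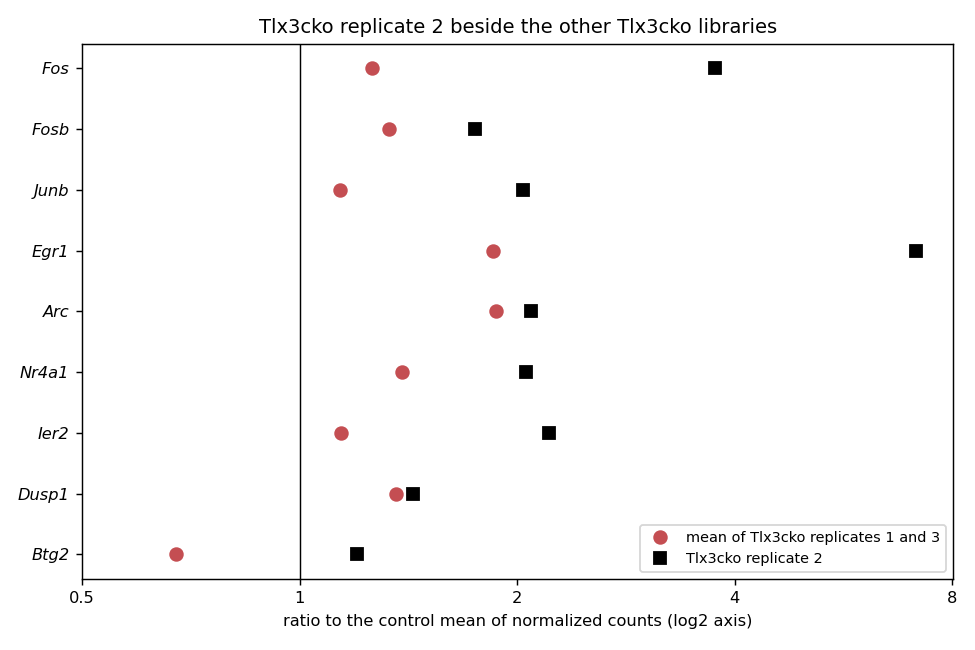
Ratio to the control mean of normalized counts (x axis, log2 scale) for Tlx3cko replicate 2 (black squares) and for the mean of Tlx3cko replicates 1 and 3 (red circles), for 9 of the 10 genes, with Npas4 left out for its few reads. The points lie close together in Arc and Dusp1 and far apart in Egr1 and Fos, and in Btg2 they lie on opposite sides of 1.

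Across the 6 libraries, each gene was set against the mean profile of the other 9 (edgeR's log2 CPM, each gene scaled to an SD of 1). Pearson's r was 0.98 for Fos, 0.95 for Egr1, 0.92 for Nr4a1, 0.88 for Npas4, 0.82 for Junb, 0.77 for Dusp1, 0.76 for Ier2, 0.71 for Arc, 0.44 for Fosb and 0.15 for Btg2. These are descriptions over 6 libraries that share the contrast of genotype and the high values of Tlx3cko replicate 2, and Fosb and Btg2 were the least alike. Among the 13365 genes whose mean normalized count was 50 or more, the 5 whose pattern was most like the mean profile of the 10 were Gm14164 (r = 0.99), Dph5, Gsg1l, Gm38316 and Pam16 (r = 0.97 each). None of these 5 passed the threshold.

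Per kilobase of annotated exon, the level in control DRGs was highest for Junb, with 209 ± 35.2 normalized counts per kilobase. Nr4a1 (114) and Dusp1 (107) came next and overlapped each other. Ier2 (60.7), Fos (44.3), Egr1 (36.5) and Btg2 (33.9) followed, each overlapping its neighbour in this order. Arc (23.0), Fosb (3.12) and Npas4 (0.161) were lower and did not overlap their neighbours. In Tlx3cko DRGs Junb (301), Nr4a1 (183), Dusp1 (148), Egr1 (132), Fos (92.8) and Ier2 (91.0) formed a chain in which each overlapped its neighbours, so that the spread does not separate their order. Arc (44.7) and Btg2 (28.8) overlapped each other, as did Fosb (4.59) and Npas4 (1.48). Over both genotypes, the mean level per kilobase put Junb at the 81.8 percentile of 15639 protein-coding genes tested, Fos at the 54.2, Arc at the 39.5 and Npas4 at the 2.68 percentile.

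The wider early response was read from 8 lists of relatives and partners, 63 genes tested in all. Of these, 3 were higher and 1 was lower past the threshold, against 1.69% and 2.56% of all genes, and the median log2 fold change was 0.08. The 3 higher genes were Egr2, Csrnp1 and Trib1, and the lower one was Npas2. Every Tlx3cko library lay above every control in 12 of the 63 genes and below in 8, where 8.87% and 10.8% of all genes did so. Tlx3cko replicate 2 was the highest library in 20 of 63 (31.7%), and in 17.5% of all genes.

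In the Egr family with its Nab corepressors, 5 of 5 genes had a positive sign and the median log2 fold change was 0.81. Egr2, known for its role in Schwann cell myelination, had 106, 95.7 and 125 normalized counts in controls and 159, 206 and 211 in Tlx3cko libraries. It was the 1 gene of this family that passed, with a log2 fold change of 0.81 (SE 0.18, adjusted p = 0.0241). Egr3, Egr4 and Nab1 were named after their values were seen. Egr4 and Nab1 also had every Tlx3cko library above every control, with adjusted p of 0.278 and 0.0934. Egr3 had the largest log2 fold change of this family, 1.34 (adjusted p = 0.300). Its ranges overlapped, and it had 142 normalized counts in Tlx3cko replicate 2, beside 22.1 and 54.1 in Tlx3cko replicates 1 and 3. Nab1 codes for a corepressor that binds Egr proteins. The call of Egr2 was lost in 4 of 6 fits without 1 library (without control replicate 1 or 2 or Tlx3cko replicate 2 or 3), with a highest adjusted p of 0.117. It was also lost against control replicate 3 alone, where the log2 fold change was smaller, 0.61.

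Among 17 other early response genes, 2 were higher and 0 lower. Csrnp1, a nuclear protein gene induced by Axin, had 62.6, 67.8 and 65.4 normalized counts in controls and 119, 161 and 139 in Tlx3cko libraries. Its log2 fold change was 1.09 (SE 0.20, adjusted p = 0.00595), close in size to that of Arc. Trib1, a pseudokinase gene, had a log2 fold change of 0.80 (SE 0.20, adjusted p = 0.0365). Without each library in turn the call of Csrnp1 was lost in 0 of 6 fits, with a highest adjusted p of 0.0372, and that of Trib1 in 4 of 6 (without replicate 2 or 3 of either genotype), with a highest of 0.170. Against control replicate 3 alone both calls were lost, and the log2 fold changes were 1.09 for Csrnp1 and 0.79 for Trib1.

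The other families gave few or no calls. Of the 14 AP-1 partners 0 passed in either direction, with a median log2 fold change of 0.04. The most abundant, Jund, had a log2 fold change of -0.24 (adjusted p = 0.217). The MAP kinase phosphatases other than Dusp1 gave 0 calls among 9 genes tested and a median of 0.01, the most abundant being Dusp8 with 0.01 (adjusted p = 0.975). The Ier and Klf genes gave 0 of 7 with Klf6 the most abundant (-0.11, adjusted p = 0.675), and the BTG and TOB family 0 of 4 with Tob1 the most abundant (0.01, adjusted p = 0.988). The NR4A receptors beside Nr4a1 gave 0 of 2, and Nr4a2 had a log2 fold change of -0.22 (adjusted p = 0.769). Nr4a3, named after its values were seen, had the opposite sign (1.19, adjusted p = 0.407). Its normalized counts were 10.8, 13.0 and 6.38 in controls and 14.4, 44.6 and 10.8 in Tlx3cko replicates 1, 2 and 3. Among partners and relatives of Npas4, Npas2, a circadian transcription factor gene, was lower with a log2 fold change of -1.92 (SE 0.38, adjusted p = 0.0105). Its call was lost without control replicate 2 (adjusted p = 0.0538) and against control replicate 3 alone (log2 fold change -1.64). The 5 families with 0 calls by edgeR, 36 genes in all, held 4 higher and 4 lower at an unadjusted p under 0.05, and DESeq2 called 1 of them higher (the AP-1 partner Fosl2, a Fos relative) and limma-voom 0.

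**Figure D4:**
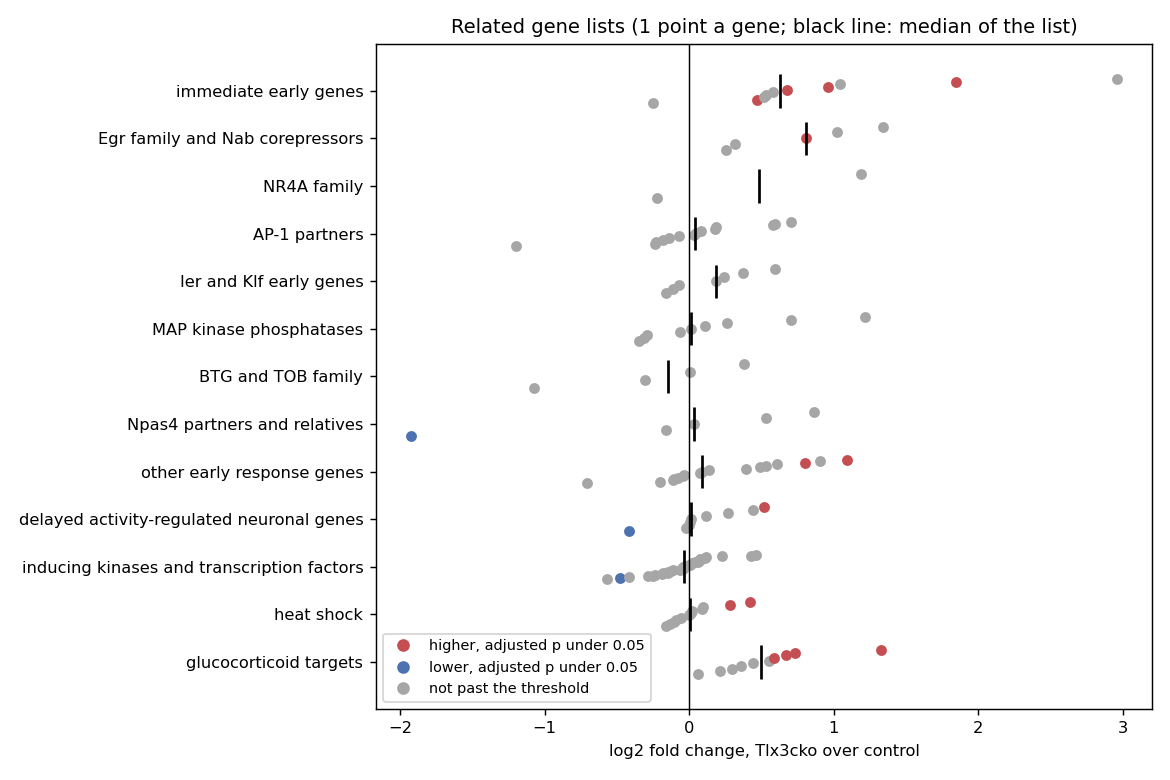
Log2 fold change, Tlx3cko over control (x axis), of every gene tested in the immediate early genes and in 12 related lists, 1 point a gene, red or blue where the adjusted p was under 0.05, with a black line at the median of each list. The medians of the immediate early genes (0.63), the Egr and Nab genes (0.81) and the glucocorticoid targets (0.50) lie to the right of 0, the NR4A median rests on 2 genes, and the fitted value of Npas4 at the far right depends on the prior count.

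Upstream of the early genes, the kinases and transcription factors that induce them gave 0 higher and 1 lower of 33, with a median log2 fold change of -0.04. Camk2a, a calcium-dependent kinase gene, was the lower one (-0.48, SE 0.08, adjusted p = 0.00404). Of 9 delayed activity-regulated neuronal genes 1 was higher and 1 lower, with a median of 0.01. Nptx1, coding for a secreted synaptic pentraxin, had a log2 fold change of 0.52 (SE 0.08, adjusted p = 0.00158), and Nrn1, coding for neuritin, one of -0.42 (SE 0.08, adjusted p = 0.0115). The calls of Camk2a and Nptx1 were lost in 0 of 6 fits without 1 library, and that of Nrn1 in 3 of 6 (without control replicate 2 or Tlx3cko replicate 2 or 3). Against control replicate 3 alone the log2 fold change was -0.46 for Camk2a, 0.62 for Nptx1 and -0.42 for Nrn1, and the call of Nrn1 was lost. Among the 33 inducing genes, edgeR gave 1 higher and 4 lower at an unadjusted p under 0.05, DESeq2 called 0 higher and 2 lower, and limma-voom 0 and 1.

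Genes that respond to heat and cell stress were read for comparison. Of 12 heat shock genes 2 were higher and 0 lower, Hspb1 with a log2 fold change of 0.42 (SE 0.09, adjusted p = 0.0179) and Bag3 with 0.28 (SE 0.07, adjusted p = 0.0426). The median of the 12 was 0.00, and their summed normalized counts ranged from 99754 to 123582 in control and from 108835 to 114038 in Tlx3cko libraries, within the control range. Without each library in turn the call of Bag3 was lost in 6 of 6 fits and that of Hspb1 in 3 of 6 (without control replicate 1 or Tlx3cko replicate 2 or 3). Both were lost against control replicate 3 alone, where the log2 fold changes were smaller, 0.35 for Hspb1 and 0.23 for Bag3.

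Targets of the glucocorticoid receptor, which respond to stress hormone, formed the last list. Of 10 such genes 4 were higher in Tlx3cko DRGs and 0 lower, also with DESeq2 (6 and 0) and limma-voom (4 and 0) and at an unadjusted p under 0.05 (9 and 0). In addition 10 had a positive sign, in 9 every Tlx3cko library lay above every control (8.87% of all genes), and the median log2 fold change was 0.50. Mt2, a metallothionein gene, had 54.0, 48.9 and 41.5 normalized counts in controls and 100.1, 104 and 157 in Tlx3cko libraries (log2 fold change 1.33, SE 0.24, adjusted p = 0.00635). Mt1 had 321, 367 and 389 in control and 575, 611 and 605 in Tlx3cko libraries (0.73, SE 0.11, adjusted p = 0.00178).

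Nfkbia, the inhibitor of NF-kappaB, and Sgk1, a kinase gene, were the other 2 that passed, with log2 fold changes of 0.67 (SE 0.15, adjusted p = 0.0245) and 0.59 (SE 0.15, adjusted p = 0.0466). The library order differed from that of the immediate early genes: Tlx3cko replicate 3 was the highest library in 8 of the 10 glucocorticoid targets and Tlx3cko replicate 2 in 2. Over all 20006 genes tested, Tlx3cko replicate 3 was the highest in 2957 and Tlx3cko replicate 2 in 3506. The summed normalized counts of these targets were 6361, 5769 and 6867 in control and 7663, 7886 and 8577 in Tlx3cko libraries. The calls of Mt1 and Mt2 were lost in 0 of 6 fits without 1 library, that of Nfkbia in 4 of 6 (without replicate 2 or 3 of either genotype) and that of Sgk1 in 6 of 6. Against control replicate 3 alone these calls were lost, while the log2 fold changes were 0.62 for Mt1, 1.54 for Mt2, 0.70 for Nfkbia and 0.42 for Sgk1. Any part of these genes in the values of the immediate early genes was not tested.

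**Figure D5:**
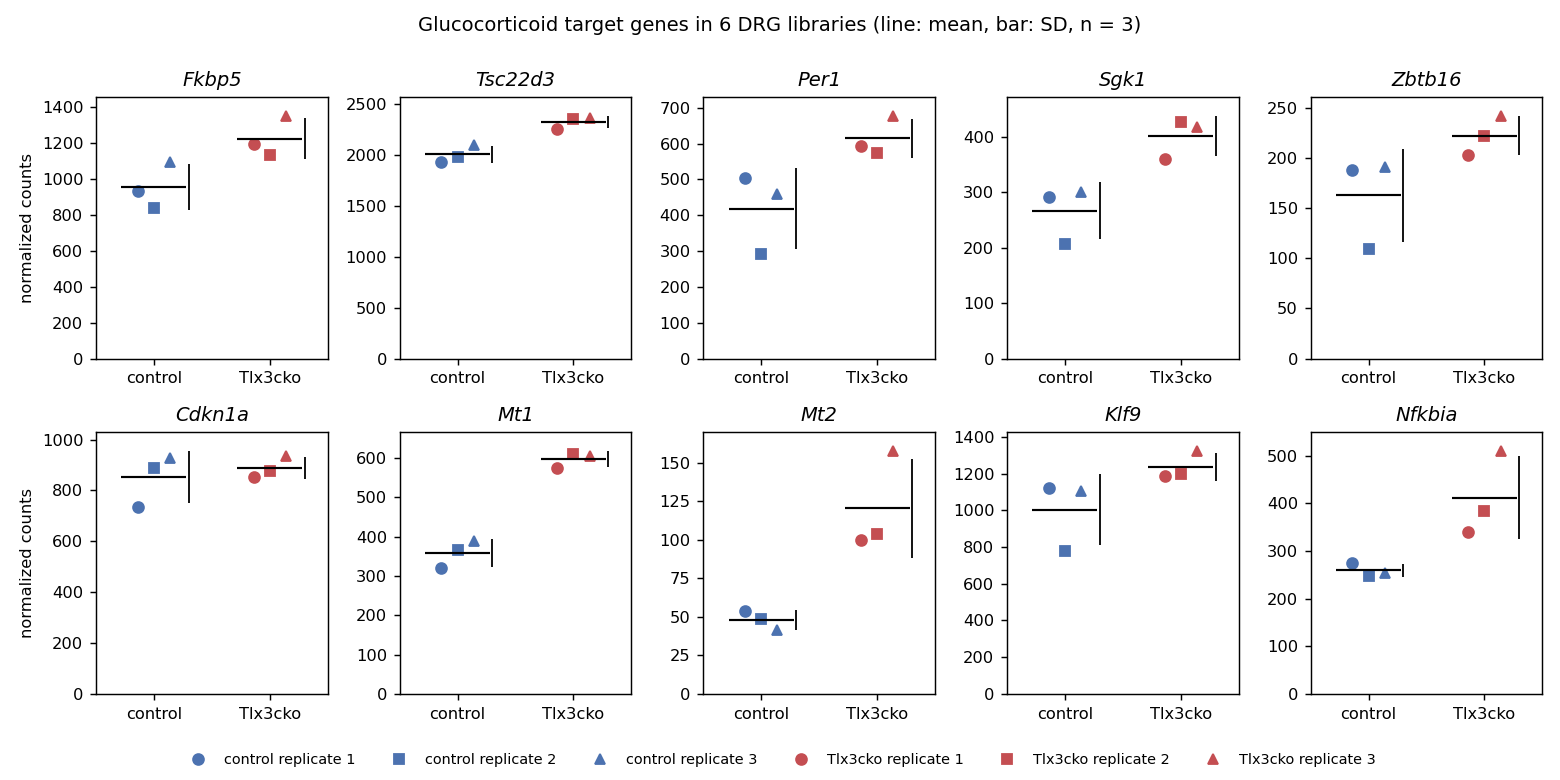
Normalized counts (y axis, linear from 0) of 10 glucocorticoid target genes in control (blue) and Tlx3cko (red) DRG libraries, with the marker giving the replicate number, a line at the mean and a bar of 1 SD (n = 3). The Tlx3cko points lie above the control points in every gene but Cdkn1a.

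Markers of the cell types of the ganglion were set beside these values. The libraries held the neuronal genes at high counts, and 0 of 7 neuronal, 0 of 5 satellite glia, 0 of 5 Schwann cell, 0 of 6 mural, 0 of 6 immune and 0 of 5 blood markers passed in either direction by edgeR. Over these 34 genes, 5 were higher and 6 lower at an unadjusted p under 0.05, DESeq2 called 3 higher and 1 lower, and limma-voom 0 and 1. The most abundant markers had log2 fold changes of 0.17 (Tubb3, neurons), 0.14 (Apoe, satellite glia), -0.28 (Rgs5, mural cells), -0.91 (Lyz2, immune cells) and -0.50 (Hba-a1, blood). Of 7 endothelial markers 1 was higher (Pecam1, 0.66, SE 0.15, adjusted p = 0.0202), with summed normalized counts of 1111 to 1296 in control and 1426 to 1518 in Tlx3cko libraries. Of 5 fibroblast markers 3 were lower (Col1a1, Dcn and Pdgfra), with a median log2 fold change of -0.42 and summed normalized counts of 4280 to 4791 in control and 3312 to 3679 in Tlx3cko libraries. Without each library in turn these calls were lost in 3 of 6 fits for Pecam1 (without control replicate 3 or Tlx3cko replicate 2 or 3), in 4 for Col1a1 (without Tlx3cko replicate 1 or 2 or control replicate 2 or 3), in 4 for Dcn (without replicate 1 or 2 of the controls or 2 or 3 of the Tlx3cko libraries) and in 5 for Pdgfra (all but control replicate 2). Against control replicate 3 alone all 4 were lost. The log2 fold changes there were 0.84 for Pecam1, -0.55 for Col1a1, -0.26 for Dcn and -0.91 for Pdgfra, and for Dcn the full fit gave -0.39.

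Genes of skeletal muscle, a tissue that lies next to the ganglia, ranged over 104 to 1839 summed normalized counts in controls and 1533 to 2845 in Tlx3cko libraries. Of these 6 genes 1 was higher (Myh4, a fast myosin gene, 2.87, SE 0.56, adjusted p = 0.0101), and their median log2 fold change was 1.15. The call of Myh4 was lost without control replicate 2 (adjusted p = 0.0611) and held against control replicate 3 alone (log2 fold change 5.62). The summed counts of the 6 muscle genes were highest in Tlx3cko replicate 1 (2845), beside 2463 in Tlx3cko replicate 2. Acta1 and Myh4 were highest in Tlx3cko replicate 1, Ckm, Tnnt3 and Mylpf in Tlx3cko replicate 2, and Myh1 in control replicate 1. The spinal cord markers Mog, Olig1 and Olig2 had at most 5 counts in any library, while Gfap, which satellite glia can also express, and Aqp4 together had 74.5 to 149 normalized counts in controls and 63.0 to 180.1 in Tlx3cko libraries, the lowest in Tlx3cko replicate 2. The part of fibroblast, endothelial or muscle tissue in the values of the immediate early genes was not tested.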

How the data were processed

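Total RNA from the DRGs of 6 mice was sequenced as paired-end reads on an Illumina HiSeq platform. The authors deposited whole-number read counts per gene and library, with no normalization. The submitters' processing notes name STAR 2.5.2a and the genome build mm10, and the counting program, the annotation and the use of strand are not given in the sources used here. Of 47937 rows, 47729 carry Ensembl identifiers, and 47224 were matched to a symbol with GENCODE M21 (GRCm38). Samples were grouped by the genotype in the labels. Libraries of the same genotype differed by more than sampling noise (chi-square per degree of freedom 4.32 to 10.1) and were kept as separate samples.

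In R 4.3.3, the 20006 genes whose counts summed to at least 10 were scaled by TMM and fitted with the quasi-likelihood test of edgeR 4.0.16, with Benjamini-Hochberg adjustment over all of them and a threshold of 0.05. The scripts were tested on simulated data. Alternatives were DESeq2 1.42.0, limma-voom (limma 3.58.1), other normalizations and filters, the replicate number as a block, each library left out, and control replicate 3 alone. Levels per kilobase use annotated exon length. Near-identical sequence was searched with blastn (at least 100 bases, 98% identity) and found for Junb with Prdx2 only. Promoter windows are those of RefSeq on GRCm38.p6, and Arc, Ier2 and Egr1 were not matched to one.

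The 10 genes and all lists were chosen with earlier results of these data known. All 10 are named with their values, as are Tlx3, up to 4 called genes of each list or else its most abundant, and the 5 genes most like the mean profile. Intervals of counts cover counting error only. Some genes covered by this rule are not reported.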

Additional observations from a re-analysis of the deposited data

How the results depend on the processing

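Of 138 results for the 10 genes under 14 alternatives, 117 kept their direction and were counted on the same side of the threshold. Among these 117, the DESeq2 result of Npas4 had no adjusted p and was counted as not past the threshold. Of the rest, 19 kept the direction and were no longer past it, 2 kept the direction and newly passed, and 0 turned. The newly passing genes were Fos and Junb without the low-count filter, where the standard error of Fos was 0.20 in place of 0.36, and the cause was not tested. Without that filter 1529 genes passed in place of 851, with 9 in place of 4 early response partners. The 4 calls among the 10 genes were 3 with DESeq2, 3 with limma-voom and 6 without the filter. Leaving out 1 library gave 488 to 938 genes in all, 1 to 3 of the 10 genes, 1 to 5 of the partners and 4 to 8 of the remaining lists, which had 9. The lowest count for the 10 genes, 1, came without control replicate 2 or Tlx3cko replicate 2, and fewer samples enter these fits. Control replicate 3 alone against the Tlx3cko libraries gave 553 genes, 0 of the 10 genes, 1 partner and 2 of the remaining lists, with the lone control assumed to vary like the other group. The replicate number as a block gave 770 genes and 4 of the 10 genes. Libraries with the same number deviated from their group means with correlations of -0.11, -0.02 and -0.09, and 0 of the 6 correlated best with its own number. These values gave no sign that the numbers pair the mice, but 3 libraries a genotype are too few to exclude pairing. Npas4 could not be tested without Tlx3cko replicate 2 or with a minimum of 1 CPM in 3 libraries. Npas4 had at most 11 counts and Fosb at most 37 counts in a library, which limits the precision of both.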
